A study of Homo sapiens and Mus musculus with 14 samples.

Results

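The genes of the proteasome, the protease complex that degrades ubiquitin-tagged proteins, were examined in ATAC-seq peak lists of a human breast cancer line with and without SMARCAL1. They were taken as all protein-coding genes whose symbol begins with PSMA, PSMB, PSMC, PSMD, PSME, PSMF or PSMG followed by a number, which gave 50 of the 20037 protein-coding genes on the primary chromosomes in the RefSeq table of assembly GRCh38.p14. Of these, 48 encode proteasome subunits, regulators or assembly factors. The other two match the symbol rule only: PSMC3IP encodes a meiotic recombination factor and PSME3IP1 a nuclear protein that binds the activator PSME3.

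ATAC-seq marks accessible DNA by the insertion of a transposase. The series holds 14 libraries. MDA-MB-436 is an established breast adenocarcinoma line that carries a BRCA1 mutation in all 3 of its groups. Its libraries came from cells with the genotype Control (3 libraries) and from a pair of SMARCAL1 knockout clones, clone 1 (3 libraries) and clone 2 (2 libraries), all cultured in DMEM with serum and with no treatment named. SMARCAL1 is an annealing helicase that remodels stalled replication forks. The 6 mouse B16F10 libraries, 3 Smarcal1 reconstituted and 3 Smarcal1 knockout, were not analysed here. By their labels, clone 2 was the only group of batch 2, with control and clone 1 both in batch 1, so clone 2 and its batch cannot be told apart. Each knockout line is 1 clone, and a property of a clone cannot be told apart from the loss of SMARCAL1.

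The 26S proteasome is built from a barrel-shaped 20S core, made of outer rings of alpha subunits (PSMA genes) and inner rings of beta subunits (PSMB genes), and 19S caps. In a cap, ATPases (PSMC genes) unfold the substrate and non-ATPase subunits (PSMD genes) bind and remove ubiquitin. Only some beta subunits are proteolytic. In cells exposed to interferon these can be replaced by PSMB8, PSMB9 and PSMB10, which form the immunoproteasome and change the peptides made for antigen presentation. Constitutive subunit genes are expressed in nearly all cells, and many are raised together by the factor NFE2L1 when proteasome activity falls short.

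The authors' replicates were already merged into 1 peak list for each group, so there is no spread between replicates, no test and no p-value for any comparison below. The lists held 64806 peaks for control, 39537 for clone 1 and 34572 for clone 2, covering 33.2, 22.3 and 8.37 Mb. Median peak width was 399, 453 and 200 bp. A gene-end peak here is a peak that comes within 1000 bp of the start or the end of a gene model. The score, deposited without a header, was read from its values as the −log10 p of a peak, with a lowest value of 5 in control. Scores were ranked within a list and not compared between lists, and a percentile below is the place of a gene's strongest gene-end peak among all protein-coding genes with such a peak in the same list. Those genes number 12168 in control, 10068 in clone 1 and 8625 in clone 2, and the shorter lists hold fewer genes with weak control peaks, so a percentile places a gene within its own list and a difference between lists is not read as a change. SMARCAL1 itself had a gene-end peak in all 3 lists, scoring 16.7 in the control list, 13.1 for clone 1 and 13.5 for clone 2, which does not check the knockout, since a peak at the gene start does not depend on an intact coding sequence. Of 9 marker genes, VIM, a mesenchymal marker, and EPCAM, an epithelial one, had a gene-end peak in all 3 lists. CD44, KRT8 and KRT18, expressed in many breast cancer cells, had one in control alone, at scores of 5.27 for CD44 and 5.76 for a peak shared by KRT8 and KRT18, both close to the lowest score. The melanocyte gene MLANA, the endothelial gene PECAM1 and the basal keratin gene KRT5 had none. The leukocyte gene PTPRC had a peak in clone 2 alone, at its 3′ end, with a score of 7.8.

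Most proteasome genes had a gene-end peak in every list. In control, 37 of the 50 (74%) had one, against a background of 60.7% of all protein-coding genes. In clone 1 the count was 36 (72%), against 50.2%, and in clone 2 it was 33 (66%), against 43%. A gene-end peak was present in all 3 lists for 33 genes (66%; 39.3% of all genes) and in no list for 11 (22%; 36.6% of all genes). The members' share fell from control to clone 2 by fewer percentage points than the share over all genes, which dropped in the order of the list lengths.

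With all peaks counted, few members had a control peak and none in a clone. In clone 1, 3 of the 37 genes with a control peak lacked one (8.11%), against 21.1% of all genes with a control peak. In clone 2 it was 4 of 37 (10.8%), against 30.1%, and in both clones together 3 of 37 (8.11%), against 15.9%. Control scores bear on these counts, because over all genes a weak control peak was more often absent in a clone. In clone 1 the share ran from 69.8% in the lowest decile of control scores to 0.0822% in the highest, and in clone 2 from 85.4% to 1.31%. No member lay in the lowest 2 deciles. At the shares of all genes in the same decile of control score, 4.36 members would lack a peak in clone 1, 7.2 in clone 2 and 2.65 in both, beside the observed 3, 4 and 3. With all peaks counted, the numbers for clone 1 and for both clones are thus close to those of genes with like scores, and the number for clone 2 is lower. With peaks above the median score of their list alone, 11 of 37 members were absent in clone 1 (29.7%; 31.2% of all genes) and 22 of 37 in clone 2 (59.5%; 49.4% of all genes), so for clone 2 the order turned. With lists of equal length, 8.11% and 10.8% of the members were absent, beside 15.9% and 20% of all genes. In the other direction, 2 of the 13 members without a control peak had one in clone 1 (15.4%; 5.88% of all such genes) and 0 of 13 in clone 2 (1.54% of all such genes).

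**Figure D1:**
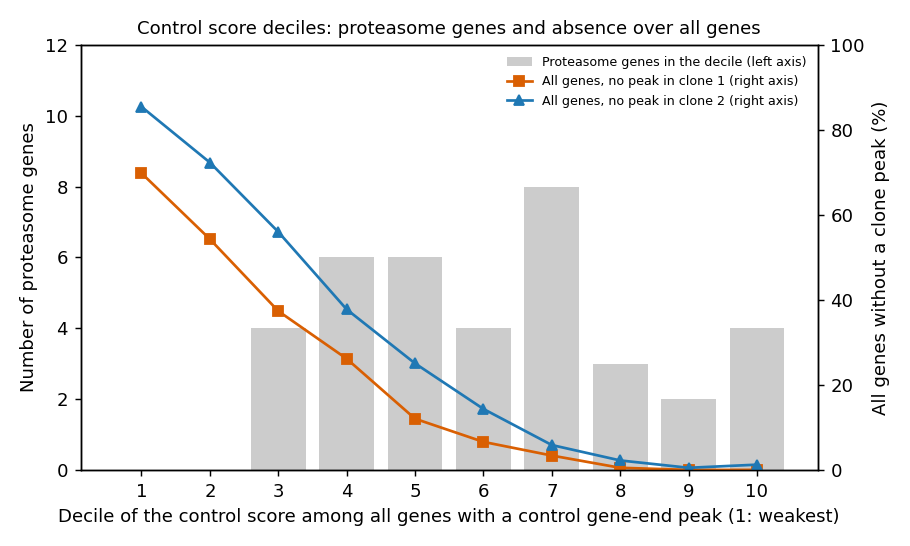
Grey bars (left axis) count the proteasome genes in each decile of the control gene-end score, ranked over all protein-coding genes with a control gene-end peak, from the weakest (1) to the strongest (10). Lines (right axis) give the percentage of all those genes without a gene-end peak in clone 1 (orange squares) or clone 2 (blue triangles): the lines fall from 69.8% and 85.4% in the weakest decile to 0.0822% and 1.31% in the strongest, and the proteasome genes start at decile 3.

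Ordered by role, the 19S cap genes had peaks more completely than the 20S core genes. All 20 PSMC and PSMD genes had a control gene-end peak, and 18 of them had one in each clone, where 60.7%, 50.2% and 43% of all genes did. Of the 15 ring genes PSMA1 to PSMA8 and PSMB1 to PSMB7, 9 had one in control, 9 in clone 1 and 7 in clone 2, so that the control share was near that of all genes, and 5 had none in any list. One of those 5 is PSMA8, whose expression is restricted to the testis; without it the counts were 9, 9 and 7 of 14. Another is PSMA6, whose RefSeq start lies inside the gene model and had a peak in all 3 lists. In control the scores ran the other way: the median percentile of the ring genes with a peak was 70.7 and that of the cap genes 48. These medians were 49.9 and 50 in clone 1, and 46.3 and 37.3 in clone 2. The PSMD group includes PSMD5, PSMD9 and PSMD10, which help to assemble the cap and are not part of the finished particle. No test of the difference between cap and ring genes can be made with 1 list a group, and 1 gene's peak is not a replicate of another's.

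**Figure D2:**
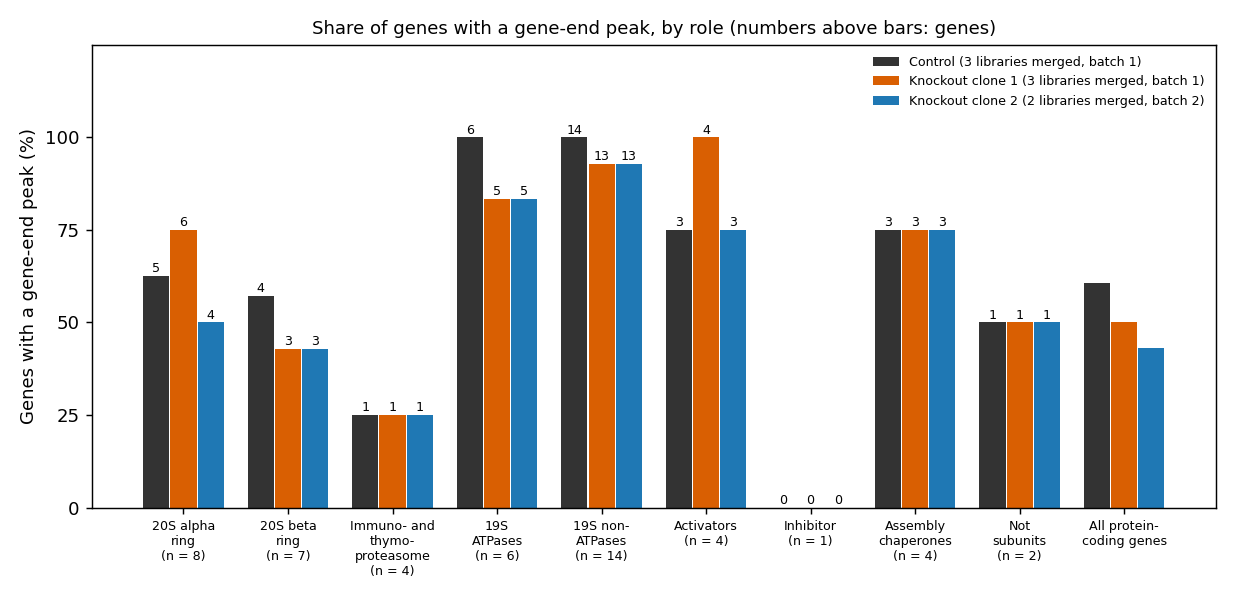
Bars give the percentage of genes in each role group with a gene-end peak in the control (black), clone 1 (orange) and clone 2 (blue) lists, with the number of such genes above each bar and the group size under the axis; the last group is all 20037 protein-coding genes. The 6 ATPase and 14 non-ATPase genes of the 19S cap reach 100% in control, while 4 of the 7 genes PSMB1 to PSMB7 have a control peak.

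Sequence just upstream of the gene start was taken from RefSeq (GRCh38.p14) for the members whose peaks differ most: PSMD14 and PSMD5 have the highest scores in control, PSMD12 had a peak in control alone, PSMA4 in clone 1 alone, and PSMB3 and PSMB5 in no list. Each stretch runs 5′ to 3′ on the gene's strand and ends at the base before the start; for PSMD5 it was shortened to leave out a neighbouring gene. Capitals mark matches, on either strand, to these motifs: the antioxidant response element core bound by NFE2L1 and NFE2L2, as TGACNNNGC or TGAGNNNGC; the CCAAT box; the GC box GGGCGG; the ETS core CCGGAAG; the nuclear respiratory factor core GCATGCG; and the YY1 core AAGATGGC. Matches may overlap, as the YY1 and antioxidant response element matches of PSMB5 and the pair of CCAAT boxes of PSMD14 do. A match that crosses the start is cut there, as at the ends of PSMD14 and PSMB5.

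PSMD14, chr2:161308245-161308424, plus strand: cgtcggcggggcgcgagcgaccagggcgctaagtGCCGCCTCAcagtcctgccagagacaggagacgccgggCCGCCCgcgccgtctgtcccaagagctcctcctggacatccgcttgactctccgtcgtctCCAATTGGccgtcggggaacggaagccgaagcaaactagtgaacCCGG
PSMD5, chr9:120842923-120843074, minus strand: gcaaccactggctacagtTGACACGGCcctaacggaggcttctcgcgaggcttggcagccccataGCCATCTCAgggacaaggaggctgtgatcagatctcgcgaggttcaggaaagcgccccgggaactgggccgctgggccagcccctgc
PSMD12, chr17:67366578-67366757, minus strand: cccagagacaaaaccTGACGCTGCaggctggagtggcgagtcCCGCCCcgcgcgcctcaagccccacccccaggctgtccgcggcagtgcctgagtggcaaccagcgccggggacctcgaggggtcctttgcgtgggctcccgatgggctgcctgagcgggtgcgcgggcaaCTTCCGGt
PSMA4, chr15:78540225-78540404, plus strand: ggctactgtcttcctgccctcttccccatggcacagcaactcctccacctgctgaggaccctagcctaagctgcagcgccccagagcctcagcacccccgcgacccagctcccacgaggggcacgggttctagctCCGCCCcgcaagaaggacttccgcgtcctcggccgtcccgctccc
PSMB3, chr17:38752561-38752740, plus strand: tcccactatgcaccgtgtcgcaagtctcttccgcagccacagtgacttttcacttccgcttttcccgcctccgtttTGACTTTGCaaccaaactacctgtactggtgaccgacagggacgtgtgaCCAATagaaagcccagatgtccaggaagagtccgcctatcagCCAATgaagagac
PSMB5, chr14:23035221-23035400, minus strand: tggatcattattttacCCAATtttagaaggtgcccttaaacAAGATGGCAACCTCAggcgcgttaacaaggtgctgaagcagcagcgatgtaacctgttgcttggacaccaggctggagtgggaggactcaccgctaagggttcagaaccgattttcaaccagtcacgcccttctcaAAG

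In the printed stretches, an antioxidant response element core began at position -146 for PSMD14 and at -134 and -87 for PSMD5. It began at -165 for PSMD12, at -104 for PSMB3 and at -133 for PSMB5, all counted back from the gene start. PSMD5 had another at -162, before its printed bases. The printed stretch of PSMA4 held a single match, a GC box at -45. The core is thus present in a gene with peaks in all lists, in one with a control peak alone and in genes with no peak.

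Among the 44 members with a RefSeq window of 300 bases (250 before the start and 50 after), 20 (45.5%) held either form of the antioxidant response element core, and 31.1% of all 15842 windows did. The form TGACNNNGC was in 13 windows (29.5%; 14.3% of all) and TGAGNNNGC in 13 (29.5%; 19.6% of all). Either form was in 16 of the 30 members with a gene-end peak in all 3 lists. It was in 3 of the 10 with a window and no gene-end peak. The ETS core was in 14 windows (31.8%; 14.2% of all), among them PSMC1, PSMC2, PSMC6, PSMD6, PSMD7 and PSMD8. It was in 10 of the 30 members with a peak in all 3 lists. Of the 10 with a window and no gene-end peak, 3 held it: PSMA8, PSMG4 and PSMC3IP. These 10 include PSMG4 and PSMA6, whose starts inside the gene model had peaks. The start of PSMG4 had them in control (7.89) and clone 2 (10.7), that of PSMA6 in all 3 lists (10.8, 7.2 and 10.6). A CCAAT box was in 21 (47.7%; 36.4%), a GC box in 30 (68.2%; 58.5%), the YY1 core in 4 (9.09%; 3.91%), namely PSMA2, PSMB5, PSMD5 and PSMD11, and the nuclear respiratory factor core in 2 (4.55%; 5.14%), PSMA2 and PSMA4. Median GC content was 62% in the members and 62.7% in all windows. The CpG observed-to-expected ratio had a median of 0.862 in the members with a gene-end peak in all lists. It was 0.704 in those with no gene-end peak, PSMG4 and PSMA6 included, and 0.763 in all windows. These letters are descriptions of the windows and do not show that a factor was bound.

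Within the 19S cap, the 14 non-ATPase genes held the strongest peaks of the whole set in control and clone 1. PSMD5, the assembly chaperone whose upstream sequence is printed above, had the highest control score of any member, 25.2 (percentile 96.7), and scores of 13.1 in clone 1 (91.6) and 20.6 in clone 2 (86.5). Its peak was 822, 877 and 453 bp wide in the 3 lists. PSMD14, the cap's deubiquitinase, scored 23.1 in control (95.2), 12.5 in clone 1 (90.1) and 17.7 in clone 2 (79). Both genes stood in the upper quartile of every list. PSMD10, also called gankyrin, an assembly chaperone, scored 18.9 in control (90.1), 7.66 in clone 1 (57.6) and 15.7 in clone 2 (72.4). PSMD1, a large scaffold subunit of the cap, stood at percentiles of 54.1 in control and 64.5 in clone 1, and in clone 2 at 1.58, with a score of 6.54, the lowest of any member there. PSMD4, a ubiquitin receptor, had percentiles of 47, 50.7 and 12.2. PSMD2, the other large scaffold subunit, stood at percentiles of 43.9, 41.5 and 51.6.

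PSMD13, a lid subunit, had 1 of the widest control peaks, 1414 bp, and a width of 1136 bp in clone 1 and 107 bp in clone 2. The peak also lay within 1000 bp of an end of SIRT3, a mitochondrial deacetylase gene. PSMD6, another lid subunit, had a control peak of 1430 bp, and its percentiles were 47.6, 60.7 and 37.3. PSMD3, PSMD7, PSMD8, PSMD9 and PSMD11 had control percentiles between 42.5 and 54.6, and all 5 had a peak in both clones. PSMD11, with scores of 8.24, 5.38 and 9.77, stood lowest of these in clone 1, at percentile 10.8. The peak of PSMD9 also lay near an end of HPD.

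PSMD12, a lid subunit on chromosome 17 (67337916 to 67366577), was the only non-ATPase gene without a peak in the clones. Its control peak, at 67366284 to 67366825, covered the gene start and was among the weakest of any member, with a score of 6.46 (percentile 22.2). The nearest peak to either of its ends was 11696 bp away in clone 1 and 55378 bp away in clone 2. Among the 2217 genes whose control score lay within 10% of that value, 42.5% had no gene-end peak in clone 1, 61.8% none in clone 2 and 31.8% none in either.

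The 6 ATPase genes had weaker control peaks, at median percentiles of 38.5 (control), 40.8 (clone 1) and 22.1 (clone 2). PSMC3 scored highest in control at 11.6 (percentile 66.2), with 8.04 in clone 1 and 12.5 in clone 2, and its control peak was 1282 bp wide. PSMC6 scored 11 in control, 7.48 in clone 1 and 16.5 in clone 2, and stood at percentile 75.5 in the clone 2 list. PSMC1 and PSMC2 had 2 of the lowest control scores, 6.76 and 6.7, and both had a peak in each clone, PSMC2 at 6.4 and 9.27. PSMC1 scored 6.07 in clone 1 and 7.01 in clone 2 at its start, and its strongest clone 2 peak, 8.61, lay past its 3′ end. PSMC2's peak was the narrowest of any member in control, at 413 bp, and also lay near an end of PMPCB. PSMC4 had a peak in all lists, at 9.22, 6.64 and 9.26.

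PSMC5, the remaining ATPase gene, lies on chromosome 17 (63827431 to 63832019) and had a peak in control alone. That peak, at 63826926 to 63827677, scored 6.46 (percentile 22.2), the same rounded score as PSMD12, and also lay within 1000 bp of an end of FTSJ3, a ribosome biogenesis gene. The nearest clone peaks were 10443 and 53606 bp from its ends. PSMC5 and PSMD12 share a chromosome on which peaks were absent more often over all genes: of the chromosome 17 genes with a control peak, 36.1% had none in clone 1 and 57.5% none in clone 2. For the 8 members on chromosome 17, the control list had a peak for 4, where 54% of all genes on that chromosome had one. Clone 1 had a peak for 3, among them PSME3 without a control peak, and clone 2 for 2. The 8 members on chromosome 14 had 5 in each list, where 68.1% of all genes on that chromosome had a control peak. Of the genes there with a control peak, 19.4% had none in clone 1 and 24.8% none in clone 2. The part of the chromosome in the members' counts was not tested.

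**Figure D3:**
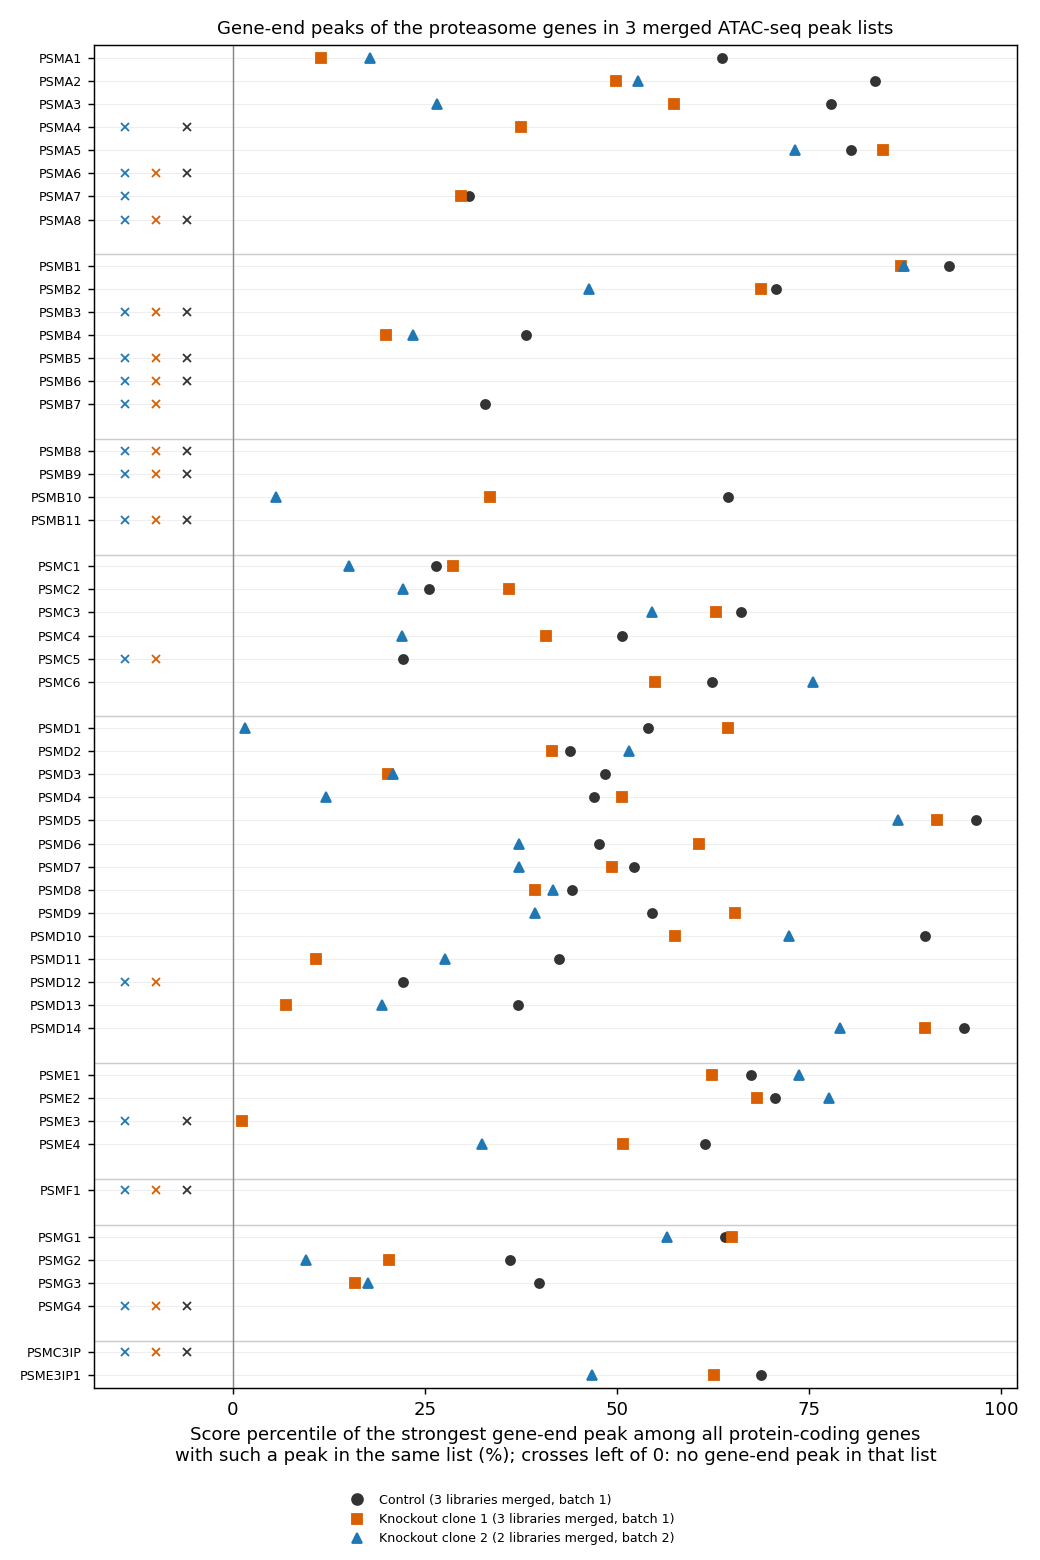
Each row is 1 of the 50 genes, grouped by role, and the horizontal axis is the score percentile of its strongest gene-end peak among all protein-coding genes with such a peak in the same list: control (black circles), clone 1 (orange squares), clone 2 (blue triangles). Crosses left of 0 mark a list with no gene-end peak: they fill all 3 columns for 11 genes, and PSMD5, PSMD14 and PSMB1 lie farthest to the right.

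In the 20S core, 5 of the 8 alpha ring genes had a control peak, 6 had one in clone 1 and 4 in clone 2. PSMA2 had the strongest in control, with 16.1 in control (percentile 83.6), 7.14 in clone 1 (49.9) and 12.2 in clone 2 (52.7), and its peak also lay near an end of MRPL32, a mitochondrial ribosomal protein gene. PSMA5 scored 15.1, 10.9 and 15.9, the highest of the ring genes PSMA1 to PSMA8 in both clones, at percentiles of 80.5, 84.6 and 73.1. Its strongest control peak lay at the 3′ side near SORT1, and the control peak at its start scored 13.7. PSMA3 scored 14.3, 7.64 and 9.67, at percentiles of 77.9, 57.4 and 26.6. PSMA1 scored 11.2, 5.4 and 8.88 at an annotated gene end shared with PDE3B. The RefSeq start of PSMA1 lies 123276 bp inside that gene model and had peaks of 11.4, 9.32 and 14.2.

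PSMA7, on chromosome 20 (62136733 to 62143394), had a peak of 7.11 in control (percentile 30.8) and 6.12 in clone 1 (29.7) and none in clone 2, where the nearest peak was 14362 bp away. The peak also lay near an end of SS18L1, a chromatin remodeller subunit gene. Of the 2067 genes with a control score within 10% of that value, 31.8% had no gene-end peak in clone 1 and 47% none in clone 2. PSMA4, on chromosome 15 (78540405 to 78552417), was found in clone 1 alone. Its peak, at 78540482 to 78540829, began 77 bp inside the gene and scored 6.49 (percentile 37.5), while the nearest control peak was 32694 bp and the nearest clone 2 peak 240699 bp from a gene end. PSMA6 had no gene-end peak, but its RefSeq start lies 13759 bp inside the gene model and had a peak in all 3 lists, at 10.8 in control, 7.2 in clone 1 and 10.6 in clone 2. PSMA6 therefore lacked a peak by the gene-end rule and not at its start. The nearest peak to PSMA8 was 32812, 32790 and 32783 bp from a gene end.

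Among the 7 constitutive beta genes, 4 had a control peak and 3 had one in each clone. PSMB1 was the strongest, with 21 in control (percentile 93.2), 11.5 in clone 1 (87) and 21 in clone 2 (87.4). This peak also lay near an end of TBP, the TATA-binding protein gene. PSMB2 scored 12.5, 8.59 and 11.5, and PSMB4 scored 7.81, 5.73 and 9.39. The genes of the proteolytic subunits had no gene-end peak in either clone. The structural gene PSMB3 had none in any list, so lack of a peak was not particular to the proteolytic genes. PSMB5, which encodes the chymotrypsin-like subunit, and PSMB6, which encodes the caspase-like one, had no gene-end peak in any list. PSMB7, which encodes the trypsin-like one, had a peak in control alone.

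The PSMB7 peak lay at 124415108 to 124415801 on chromosome 9, at the upper end of the gene (124353465 to 124415442), with a score of 7.3 (percentile 32.8) and a width of 694 bp. The nearest peak was 9763 bp from a gene end in clone 1 and 10270 bp in clone 2. Of the 2021 genes with a control score within 10% of that value, 29.6% had none in clone 1, 44% none in clone 2 and 18.9% none in either. The control scores of PSMB7, PSMC5 and PSMD12 all had more than 5 decimals, so each was taken as a mean over merged calls. Whether those calls came from different replicates is not known. The same was true of 25 of the 37 members with a control peak (67.6%) and of 62.7% of all genes with one.

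For PSMB5 (chromosome 14, 23025851 to 23035220) the nearest peak was 2894 bp from a gene end in control, 2269 bp in clone 1 and 15514 bp in clone 2. For PSMB6 (chromosome 17, 4796164 to 4798495) these distances were 5496, 5472 and 34719 bp. PSMB3, a structural beta subunit on chromosome 17 (38752741 to 38764225), lay farthest from a peak among the constitutive genes, at 35794 bp in control, 16251 bp in clone 1 and 697076 bp in clone 2. A peak list records only regions above the caller's threshold, so a gene with no peak is not shown to be closed.

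The immunoproteasome genes also differed among themselves. PSMB8 and PSMB9 lie 9512 bp apart in the major histocompatibility complex on chromosome 6, beside TAP1 and TAP2, which encode the transporter that carries peptides to MHC class I molecules. None of the 4 genes had a gene-end peak in any list. The nearest peak to PSMB8 was 473280 bp away in control, 478290 bp in clone 1 and 573488 bp in clone 2, and PSMB9, TAP1 and TAP2 had distances of the same order. Within 500 kb on each side of PSMB8 and PSMB9 the lists held 1, 1 and 0 peaks, where the median over all protein-coding genes was 28, 17 and 12. The 35 protein-coding genes of that region had a gene-end peak in 2, 2 and 0 cases. Peaks on alternative contigs of chromosome 6, many of which hold other versions of this complex, numbered 52, 16 and 12. Their part in the missing peaks was not tested, and the region cannot be read as closed from these lists.

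PSMB10, the immunoproteasome gene outside that complex, on chromosome 16 (67934506 to 67936850), had a peak in all 3 lists. It scored 11.3 in control (percentile 64.4), 6.29 in clone 1 (33.5) and 7.46 in clone 2 (5.66). The peak lay inside the gene, 784, 824 and 962 bp from the start, and thus just within the 1000 bp window. PSMB11, the thymus-specific beta subunit gene, lies 6991 bp from PSMB5 and had no gene-end peak, with the nearest at 9886, 9261 and 31875 bp.

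Of the activator genes, PSME1 and PSME2 encode the interferon-inducible PA28 cap and lie 4402 bp apart on chromosome 14. PSME1 scored 11.9 in control (percentile 67.5), 7.99 in clone 1 (62.3) and 16 in clone 2 (73.7). PSME2 scored 12.4 (70.5), 8.52 (68.2) and 17.2 (77.6), with a peak that also lay near an end of RNF31, a ubiquitin ligase gene. Both genes stood in the upper part of every list, whereas PSMB8 and PSMB9 had no peak. PSME4, the PA200 activator, had the widest control peak of any member, 1727 bp, shared with ACYP2, at scores of 10.8, 7.2 and 10.2. PSME3, the nuclear PA28 gamma activator on chromosome 17 (42833397 to 42843760), had a peak in clone 1 alone, at 42833186 to 42833636. Its score of 5.05 stood at percentile 1.22, close to the list's lowest value, and with the lists trimmed to equal length it was absent there too.

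PSMF1, the inhibitor PI31, had no gene-end peak. Its nearest peak was 1276 bp from a gene end in clone 1, just outside the window, and 5115 and 5167 bp in control and clone 2. Of the chaperones that assemble the 20S core, PSMG1 scored 11.3, 8.23 and 12.7, near an end of BRWD1, PSMG2 scored 7.61, 5.75 and 8.06, and PSMG3 scored 7.98, 5.58 and 8.86. PSMG4 had no gene-end peak. Its RefSeq start lies 4543 bp inside the gene model, with a peak of 7.89 in control, none in clone 1 and 10.7 in clone 2. Of the symbols that match the rule without being subunits, PSMC3IP had no peak and PSME3IP1 had one in all lists, at 12.1, 8.02 and 11.5, near an end of RSPRY1. Peaks that also lay near another gene's end were 13 of 37 in control (35.1%; 28.6% of all genes with a peak), 11 of 36 in clone 1 (30.6%; 29.4%) and 10 of 33 in clone 2 (30.3%; 28.3%), and for these the peak cannot be given to 1 gene.

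In strength the members with a peak stood near the middle of the control and clone 1 lists. The control scores ran from 6.46 to 25.2 with a median of 9.69, where the median of all genes with a peak was 9.15 and the highest 49.3. The median percentile was 54.1, with 7 of 37 in the upper quartile and 2 in the lower quartile. Clone 1 scores ran from 5.05 to 13.1 with a median of 7.16 (7.14 over all genes), at a median percentile of 50.3. Clone 2 scores ran from 6.54 to 21 with a median of 10.6 (11.9 over all genes), at a median percentile of 37.3, with 12 of 33 in the lower quartile. With peaks above the median score of their list alone, the medians were 43.1 in control (37 members), 40.4 in clone 1 (27 members) and 52.8 in clone 2 (15 members). Each covers only the members left, ranked among the genes left, so no order between lists is read from them.

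The peaks sat at the gene starts. Of the control peaks of the 32 members with a known strand, 29 (90.6%) covered the start, and 79.7% of those of all genes did. In clone 1 it was 28 of 32 (87.5%; 78.6% of all genes), and in clone 2, whose peaks are narrow, 18 of 30 (60%; 59.2%). For members whose strongest gene-end peak was centred within 1000 bp of the start, the centre had a median position of -38 bp in control, -32.5 bp in clone 1 and -77 bp in clone 2 (negative is upstream). In clone 2 all 27 of these strongest peaks were centred upstream of the start, against 73% over all genes, whereas 15 of 29 were in control (51.7%; 48.2%). Weaker clone 2 peaks of PSMD10 and PSME4, and the peak at the start inside the PSMA6 gene model, were centred downstream. PSMB10 is not among the 27, because its clone 2 peak was centred 1040 bp downstream of the start, outside the 1000 bp limit. Its clone 1 peak, centred 996 bp downstream, was counted. The width of the strongest peak had a median of 822 bp in control, 812.5 bp in clone 1 and 241 bp in clone 2, each below the median over all genes, 988, 910 and 289 bp.

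**Figure D4:**
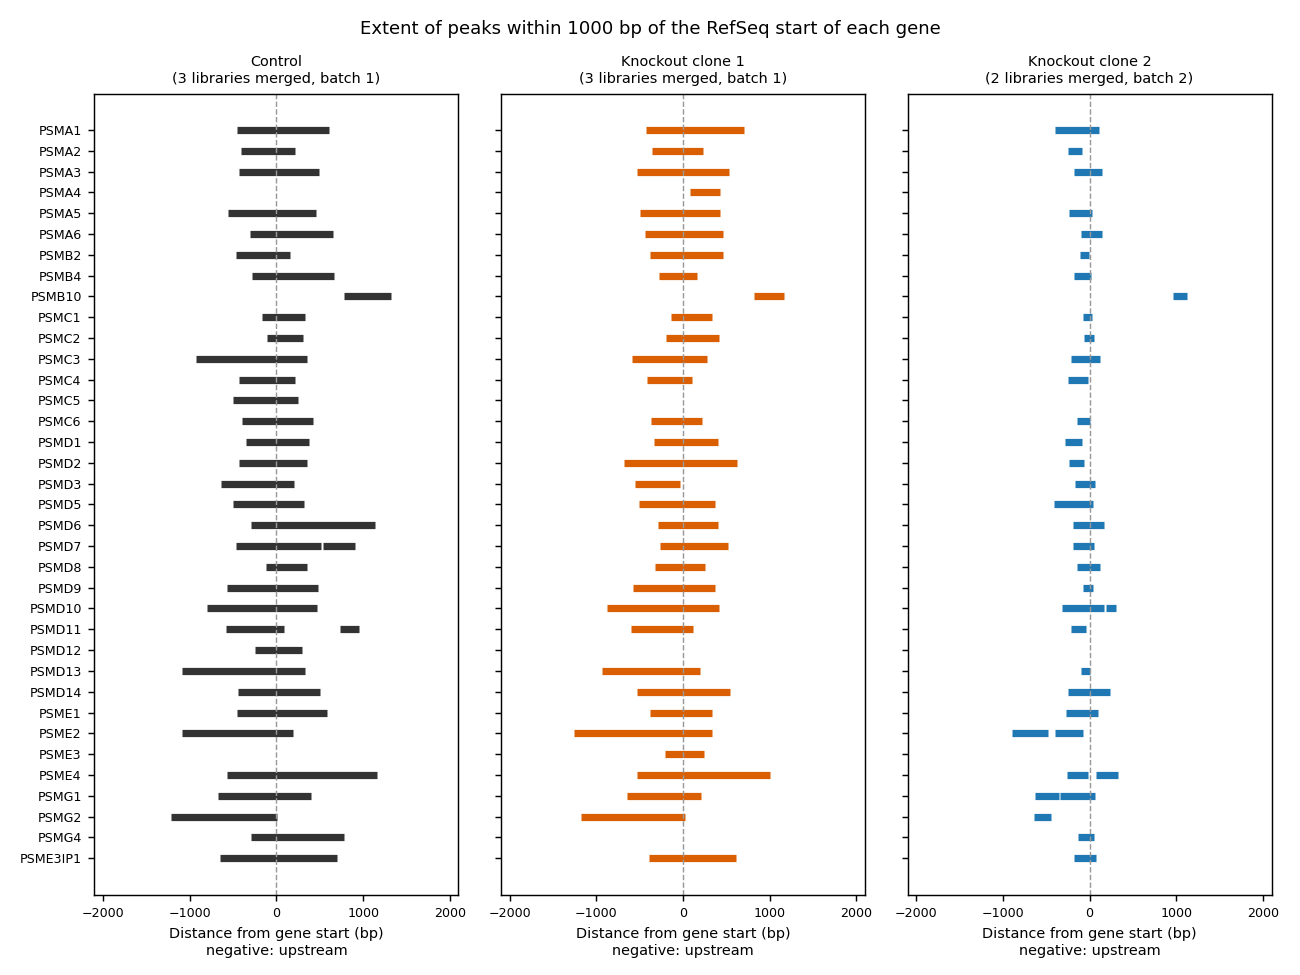
Each bar spans a peak within 1000 bp of the RefSeq start of a gene (dashed line at 0), in bp along the gene's strand with negative values upstream, for control (left), clone 1 (middle) and clone 2 (right). Most control and clone 1 bars cover the start, clone 2 bars are shorter and lie mostly upstream, and the rows of PSMC5 and PSMD12 are filled in control alone.

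Other genes of the pathway, from a list of 32 that cover proteasome transcription, assembly factors, cap partners and ubiquitin supply, had a gene-end peak in 27 cases in control, 25 in clone 1 and 25 in clone 2, with 22 in all lists, where the shares over all genes were 60.7%, 50.2%, 43% and 39.3%. Their median control percentile was 70.7. NFE2L1, the factor that raises subunit genes, scored 7.9, 8.54 and 10.2, and NFE2L2, its relative of the oxidative stress response, 10.4, 8.6 and 13.3. The genes for NFE2L1 processing had peaks in all lists: DDI2, its protease, at 8, 7.16 and 14.2, NGLY1, which removes its sugars, at 22.9, 15.9 and 21, and VCP, which extracts it from the membrane, at 13.1, 7.06 and 8.77. POMP, which matures the 20S core, scored 14.2, 6.52 and 9.34, and AKIRIN2, which brings proteasomes into the nucleus, 22.5, 12.6 and 19.1. UCHL5, a cap-bound deubiquitinase, had the highest scores of the list, 42, 24.3 and 52.6. In all 3 lists its peak also lay within 1000 bp of an end of RO60. The same held for NGLY1 with OXSM, VCP with FANCG and NFE2L1 with COPZ2. These peaks cannot be given to 1 gene.

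Of the 27 control peaks of pathway genes, 3 were absent in clone 1 (21.1% over all genes): ADRM1, the cap's ubiquitin receptor that holds UCHL5, UBB, a polyubiquitin gene, and UBA1, the main ubiquitin-activating enzyme. In clone 2, 3 were absent (30.1% over all genes): IPO9, a nuclear import factor, MAFF, a partner of NFE2L1, and UBA1. Their control scores were low, 7.05 for ADRM1, 6.3 for UBB, 5.26 for UBA1, 6.18 for IPO9 and 5.73 for MAFF. For UBA1 the nearest clone peaks lay outside the window. They were 2418 bp (score 12.3, clone 1) and 2503 bp (score 27.6, clone 2) from a gene end, and each clone list held 1 peak in its gene body. MAFG and MAFK, the other small MAF partners of NFE2L1, had no gene-end peak in any list, but the RefSeq start of MAFG lies 3509 bp inside its gene model and had peaks of 5.8, 5.76 and 11.5.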

How the data were processed

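The data were merged ATAC-seq peak lists, 1 for each of the 3 MDA-MB-436 groups, formed by the authors from 3, 3 and 2 biological replicates, per the labels. The tools named in the submitters' processing notes were ChIPseeker, HISAT2 and MACS2, and the builds mm10 and hg38. Their settings and releases are not given in the sources used. The lists have no header. The deposited score was read as −log10 p from its values. In each list a series of frequent scores matched Poisson upper tails at successive whole pileups. That series held 4035 of 64806 peaks in control, 3816 of 39537 in clone 1 and 2620 of 34572 in clone 2, so the reading is an inference. Scores with more than 5 decimals in the batch 1 lists were taken as means over merged calls. Read depth is unknown. Deposited coordinates, counted from 0, are printed counted from 1.

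Gene ends came from RefSeq (GRCh38.p14), and starts with strand from its promoter table, which held 44 of the 50 members. A peak was counted for a gene when at least 1 bp lay within 1000 bp of either gene end. Python 3.11.15, pandas 2.3.3, numpy 2.4.6 and scipy 1.17.1 were used, and the counting code was tested on simulated data. With 1 list a group no replicate test was possible, so counts stand beside the same counts over all genes. Every member could be named, with values for those that had a control peak and none in a clone or the reverse, those with no peak, the 5 strongest, 5 weakest and 5 widest in control, the immunoproteasome genes and their neighbours, those sharing a peak, and pathway genes lacking one. The members, the pathway list, the markers and the rules were chosen with earlier results of these data known. Windows of 500 and 3000 bp, starts alone, stricter scores, lists of equal length, other overlap rules and gene exclusions were tried as alternatives. The values of some pathway genes are not reported here.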

Additional observations from a re-analysis of the deposited data

How the results depend on the processing

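Of 85 alternative counts, 77 lay within 1.5 times the count given above and 8 moved further. Some of these counts could not move: PSMB8 and PSMB9 have no peak in any list, so leaving them out changes nothing. Counting a clone peak over the control peak can only keep or lower an absence. The 85 also include the counts of an alternative chosen after seeing the data, given below. The tally is thus a description and no measure of robustness. Of 9 alternative median percentiles, 7 lay within the 95% order-statistic interval of the median over members (44.1 to 64.4 in control, 35.9 to 62.3 in clone 1 and 22.1 to 52.7 in clone 2) and 2 moved out of it. With peaks above the median score of their list, 15 of the 50 members had a clone 2 peak, beside 25.1% of all genes. Those absent were 11 of 37 in clone 1, 22 of 37 in clone 2 and 11 in both. The count with a peak in clone 1 and none in control was 1. Of the 32 pathway genes, 15 had a clone 2 peak. The median percentile was then 43.1 in control (37 members), 40.4 in clone 1 (27 members) and 52.8 in clone 2 (15 members). Over all genes, 31.2% and 49.4% of control peaks were absent in clone 1 and clone 2 under this setting. With gene starts alone (44 members), 2 members had a control peak and none in clone 2, PSMC5 and PSMD12, since PSMA7 and PSMB7 have no start in the table. With lists cut to the 34572 strongest peaks, 1 member had a clone 1 peak and none in control, PSMA4. PSMB7, PSMC5 and PSMD12 lacked a peak in both clones within 500 and 3000 bp, at equal list length and under both overlap rules. Within 3000 bp, PSMB5 and PSMG4 joined the members with a control peak and none in clone 2, 6 in all. An alternative chosen after seeing the data, which also counted starts inside the gene model, gave 39, 37 and 35 members with a peak and added PSMG4 to those absent in clone 1. No paired analysis was possible because the replicates were merged into 1 list a group, and for the same reason no replicate could be left out. Depth is unknown, so a missing peak may lie just below the caller's threshold.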
